A study of Mus musculus with 24 samples.

Results

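The expression of 10 genes used as stem-like and aldehyde dehydrogenase (ALDH) markers in ovarian cancer was followed in ID8 Trp53-/- cells, a C57BL/6 mouse ovarian cancer line. The genes were taken by symbol: Aldh1a1, Aldh1a2, Aldh1a3, Aldh1a7, Aldh3a1, Cd44, Prom1, Cd24a, Epcam and Kit. All 10 were present among the 25229 genes of the count table. The study sought ways to raise killing of senescent cells by natural killer cells and followed SMARCA4, an ATPase of the SWI/SNF chromatin remodelling complex. Cells made senescent by a platinum drug were among its models. Cells were cultured for 6 days with DMSO, with 2.5 µM AU15330 (AU-15330, a PROTAC that directs degradation of SMARCA4 and of its paralogue SMARCA2), with 750 nM cisplatin, a DNA-crosslinking drug, or with both compounds. Each treatment had 6 libraries, 24 in all, made from poly(A)-selected RNA. All 4 treatments shared the P53 KO genotype, so no library came from cells with p53. The labels do not say whether replicates were separate cultures, and p-values therefore measure only the spread between these libraries.

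ALDH enzymes oxidise aldehydes to carboxylic acids. ALDH1A1, ALDH1A2 and ALDH1A3 convert retinaldehyde into retinoic acid, the ligand of the RAR nuclear receptors. A high ALDH activity in a flow cytometry assay is widely used to sort tumour cells with stem-like behaviour from ovarian cancers. ALDH3A1 acts mainly on aromatic and medium-chain aldehydes and is abundant in the cornea. CD44 is the receptor of hyaluronan, CD133 (Prom1) is a pentaspan protein of membrane protrusions, CD24 is a small glycosylated surface protein, EPCAM is an adhesion protein of simple epithelia and KIT is the receptor tyrosine kinase for stem cell factor. These surface proteins are used, alone or in combination, to sort tumour-initiating cells.

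Aldh1a1 and Aldh1a7 are neighbouring paralogues on mouse chromosome 19 and are so alike that their sequences matter for how reads are assigned. In the GENCODE annotation of GRCm38 (mm10), the build the authors used, Aldh1a1 lies at chr19:20492715-20643465 on the plus strand and Aldh1a7 at chr19:20692953-20727562 on the minus strand. Their coding sequences were 91.6% identical (1377 of 1503 bases, with no gap), against 66.0% to 68.5% between the other pairs of Aldh1a genes and 46.6% to 47.6% between these and Aldh3a1. A read of 70 bases, the length sequenced, spanned a median of 5 differences, with a range of 0 to 17. The first coding window with that median, coding bases 22 to 91 of both genes, is shown with the differing bases in capitals.
Aldh1a1: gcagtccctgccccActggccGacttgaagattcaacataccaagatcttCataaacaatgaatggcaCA
Aldh1a7: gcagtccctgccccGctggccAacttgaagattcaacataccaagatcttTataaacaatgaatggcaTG
Only 2.84% of the 70-base windows of the Aldh1a1 transcript occurred in another gene, and that gene was Aldh1a7. The share was 3.25% for Aldh1a7, and the longest identical run of the coding sequences was 100 bases. Of the other markers, only Prom1 shared windows with another gene, Gm16401, whose exons overlap those of Prom1 on the opposite strand over 424 bases.

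The paralogues also share sequence before their start sites. The windows shown run from 250 to 11 bases before the RefSeq start site (GRCm38.p6), at chr19:20601718-20601957 on the plus strand for Aldh1a1 and at chr19:20727567-20727806 on the minus strand for Aldh1a7. They are printed because both genes moved in the same direction in every comparison where they were called, and their longest common run, 65 bases at the same distance from both start sites, is in capitals.
Aldh1a1: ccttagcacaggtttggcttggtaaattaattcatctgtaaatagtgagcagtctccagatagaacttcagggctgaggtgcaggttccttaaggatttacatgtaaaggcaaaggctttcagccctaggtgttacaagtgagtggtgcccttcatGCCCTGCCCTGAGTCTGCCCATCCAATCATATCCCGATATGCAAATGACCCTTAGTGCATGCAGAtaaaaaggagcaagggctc
Aldh1a7: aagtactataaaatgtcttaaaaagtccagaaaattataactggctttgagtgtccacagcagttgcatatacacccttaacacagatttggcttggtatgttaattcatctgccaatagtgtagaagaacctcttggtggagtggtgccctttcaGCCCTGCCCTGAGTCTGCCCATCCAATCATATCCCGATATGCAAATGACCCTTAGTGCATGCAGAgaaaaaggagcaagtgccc
The common run holds a CCAAT box that begins 72 bases before each start, and Aldh1a7 has another CCAAT 137 bases before its start. CCAAT, searched on both strands, occurred in 33% of the 32534 promoter windows of this length. The letters TGANTCA, the binding sequence of AP-1, and CATTCC, that of TEAD factors, were in neither window and occurred in 6.56% and 12.2% of all windows. TATAAA was found 244 bases before the start of Aldh1a7 and in 12% of all windows. The RefSeq table holds a second, more distant start for Aldh1a1, and the counts per gene do not separate transcripts from either.

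The libraries held 17592588 to 25260009 counted reads, with group medians from 20926484.5 with the combination to 23718839 with cisplatin. Values are given in CPM, read counts scaled to the size of their library after trimmed-mean (TMM) normalisation, on which 3 counts, the most that a count of 0 allows, corresponded to 0.12 to 0.186 CPM per library. Intervals and limits of this kind cover counting error only. Replicates of a treatment differed by 2.3 to 123 times the variance that counting alone would give, against at most 1.47 times for the 2 lanes of a library, so no 2 libraries of a treatment were the same library deposited again. The numbered replicates carry no batch in the labels, but by this measure replicates 4 to 6 stood apart. With AU-15330, replicates 4 to 6 differed by 2.3 to 3.47 among themselves and by 14.8 to 34.4 from replicates 1 to 3. These ranges were 6 to 7.95 and 18.8 to 69.2 with cisplatin, and 3.79 to 5.79 and 9.2 to 30.5 with the combination. With DMSO they were 9.02 to 55.7 and 61.7 to 123. Replicates 1 to 3 were less alike, up to 26.7, 46.1, 33.8 and 108 in that order. The main fit had no term for these sets. Cd44 differed between them, as described below. In cultured cells at bulk level, fewer cells that express a gene and less RNA per cell cannot be told apart.

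The markers fell into 3 that were well expressed, 3 that were weakly expressed and 4 near the limit of counting. Per kilobase of exon, a scale that depends on the length used, Aldh3a1 had the highest level with DMSO (142 CPM per kilobase). It was at or above 97.9% of the 12717 tested genes with an exon length. Aldh1a1 and Cd44 followed at 16.5 and 15.7 CPM per kilobase, at or above 71.3% and 70% of those genes. Their CPM had coefficients of variation of 18% and 29.2% over 6 libraries. The lengths join all annotated exons, 4937 bases for Aldh1a1 and 6776 for Cd44. The transcripts with the longest coding sequence hold 2358 and 5614 bases, and by these Aldh1a1 would stand further above Cd44. Aldh1a7 stood at 1.02, Kit at 0.18 and Aldh1a3 at 0.0574 CPM per kilobase. Epcam, Cd24a, Prom1 and Aldh1a2 had at most 4 counts in any of the 24 libraries. With AU-15330 the order changed: Cd44 stood at 8.31 and Aldh1a1 at 4.91 CPM per kilobase, and Aldh3a1 was at 0.0502, below Aldh1a7 at 0.555. Which of Cd44 and Aldh1a1 was highest with AU-15330 depends on the length used.

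**Figure D1:**
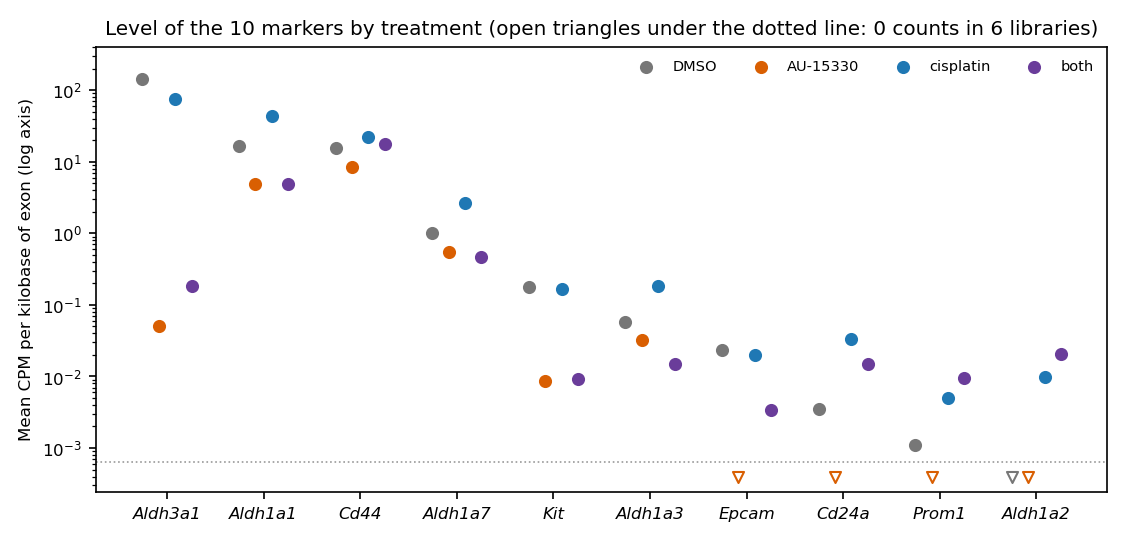
Mean level of each marker by treatment, in CPM per kilobase of exon on a log axis, with one point per treatment (6 libraries each) and open triangles where all 6 libraries had 0 counts. Aldh3a1 dropped from the top of the order with DMSO (142) to 0.0502 with AU-15330, while Cd44 stayed between 8.31 and 22.4 in every treatment.

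Tests for 5 comparisons were made in one edgeR fit of all libraries, each across the 12941 genes that passed a filter on low counts, and a gene was called at a Benjamini-Hochberg adjusted p under 0.05. Only 5 of the 10 markers passed the filter: Aldh1a1, Aldh1a7, Aldh3a1, Cd44 and Kit. Cisplatin against DMSO called 3 of them higher and 1 lower, in a comparison that called 26.0% of all genes higher and 25.7% lower. AU-15330 against DMSO called all 5 lower, where 37.2% of all genes were lower and 36.2% higher. The combination against cisplatin called 4 lower and none higher, against 32.7% lower and 35.4% higher overall. The combination against AU-15330 called 1 higher, Cd44, against 22.2% higher and 19.5% lower overall. The interaction, which is the effect of AU-15330 in the presence of cisplatin minus its effect without cisplatin, was called positive for 2 and negative for 2, where 17.9% of all genes were positive and 15.8% negative. The first comparisons share the DMSO libraries, so their calls are not independent of each other. Aldh3a1 and Kit passed the filter through their counts with DMSO and cisplatin alone, so these counts over the tested markers are a description only.

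**Figure D2:**
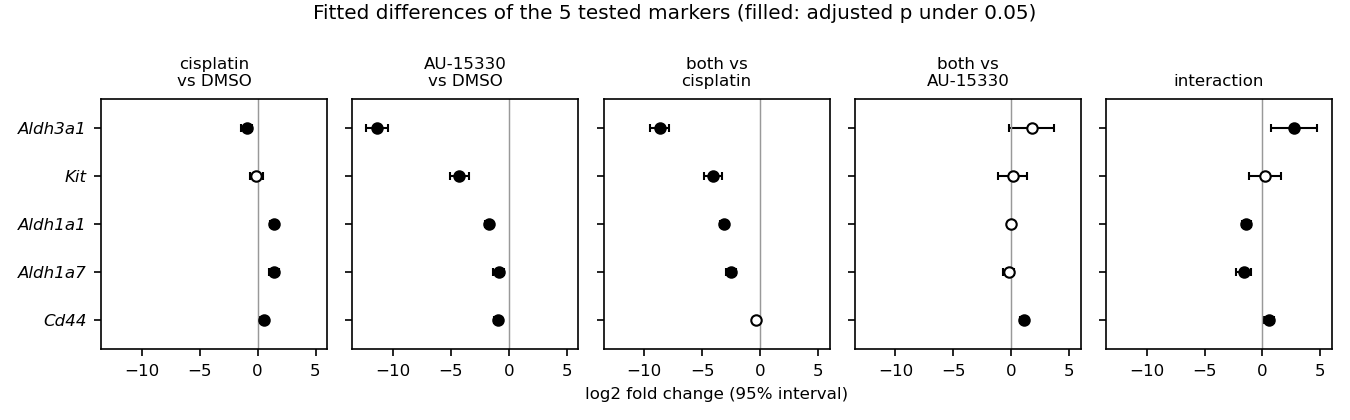
Fitted log2 fold changes with 95% intervals of the 5 tested markers in the 5 comparisons, where filled points had an adjusted p under 0.05 and open points did not. Aldh3a1 had the largest differences where AU-15330 was added (−11.35 and −8.66), and Cd44 was the marker called higher with the combination than with AU-15330 alone (1.10).

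Aldh1a1, the main retinaldehyde dehydrogenase of the set, was up-regulated by cisplatin and down-regulated by AU-15330 whether or not cisplatin was present. Its level had a lowest, median and highest value of 68.1, 79.2 and 109 CPM with DMSO, of 185, 213 and 238 CPM with cisplatin, of 18.4, 22.7 and 35.4 CPM with AU-15330 and of 18.4, 23.8 and 30.7 CPM with the combination. The cisplatin libraries lay above all DMSO libraries, and all 12 libraries with AU-15330 lay below them, while the 2 groups with AU-15330 overlapped.

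The fitted log2 fold change of Aldh1a1 was 1.38 ± 0.14 (SE) for cisplatin against DMSO (edgeR quasi-likelihood test, Benjamini-Hochberg adjusted p = 4.745e-09). With AU-15330 it was −1.75 ± 0.14 against DMSO (edgeR adjusted p = 1.872e-11). The combination lay −3.13 ± 0.15 below cisplatin (edgeR adjusted p = 4.225e-16), an 8.78-fold lower level. The difference between the combination and AU-15330 alone was −0.01 ± 0.14, with a 95% interval of −0.30 to 0.28 (edgeR adjusted p = 0.978). The interaction was −1.38 ± 0.19 (edgeR adjusted p = 5.473e-06), so that AU-15330 lowered Aldh1a1 more in cisplatin-treated cells, and the direction and call of these 4 called differences held in every alternative setting in which they were computed.

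Aldh1a7, the rodent paralogue of Aldh1a1, followed the same order at a much lower level. It ranged over 1.72, 1.91 and 3.22 CPM (lowest, median and highest) with DMSO, 4.28, 5.64 and 6.37 with cisplatin, 0.62, 1.00 and 1.72 with AU-15330 and 0.671, 0.934 and 1.35 with the combination. Each library held 13 to 141 counts. The cisplatin libraries stood above every other library, whereas the highest AU-15330 libraries reached the lowest DMSO library.

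For Aldh1a7 the log2 fold change was 1.41 ± 0.21 with cisplatin (edgeR adjusted p = 2.774e-06), −0.86 ± 0.23 with AU-15330 (edgeR adjusted p = 0.00152) and −2.50 ± 0.22 for the combination against cisplatin (edgeR adjusted p = 1.605e-10). The combination and AU-15330 alone differed by −0.23 ± 0.24, with a 95% interval of −0.74 to 0.28 (edgeR adjusted p = 0.476). The interaction was −1.64 ± 0.32 (edgeR adjusted p = 0.000307).

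Because the paralogues share most of their sequence, the Aldh1a7 counts were also set against the sum of both genes. Aldh1a7 made up 2.48% ± 0.22 (SD, n = 6) of the pair with DMSO, 2.54% ± 0.14 with cisplatin, 4.50% ± 1.44 with AU-15330 and 3.92% ± 1.04 with the combination. The share with cisplatin did not differ detectably from that with DMSO (exact two-sided permutation test, p = 0.613, n = 6 per group). It was higher with AU-15330 than with DMSO (exact permutation p = 0.00433, 0.0173 after Benjamini-Hochberg adjustment over 4 comparisons) and with the combination than with cisplatin (exact permutation p = 0.013, adjusted 0.026). The libraries with AU-15330 held only 13 to 38 counts of Aldh1a7, and how many of these were reads of Aldh1a1 assigned to its paralogue was not tested.

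**Figure D3:**
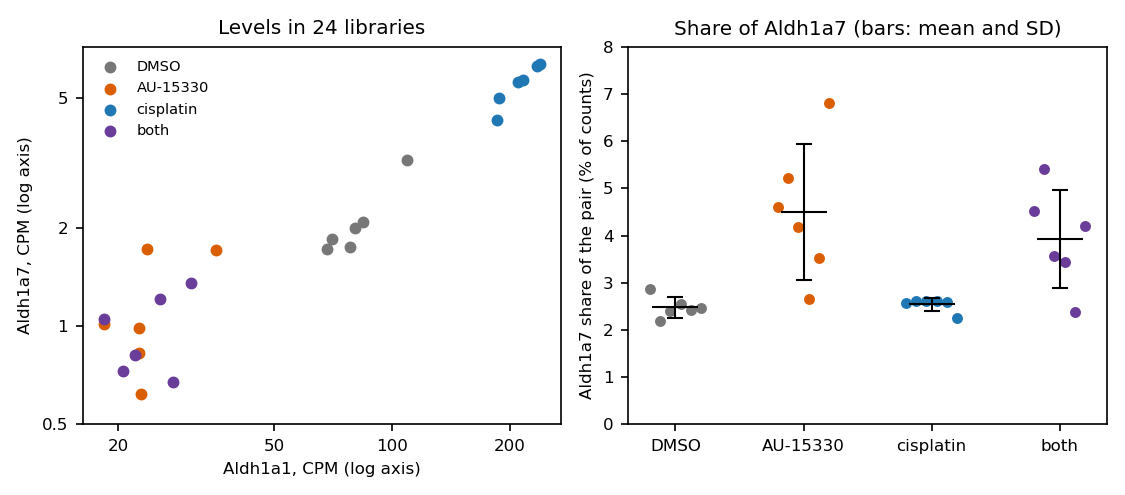
Left, level of Aldh1a7 against Aldh1a1 in CPM on log axes, one point per library; right, percentage of the pair's counts assigned to Aldh1a7 in each library, with mean and SD. The cisplatin libraries lie at the upper right (185 to 238 CPM of Aldh1a1), and the share of Aldh1a7 spreads most widely with AU-15330 (2.65% to 6.80%).

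Aldh3a1 was the most abundant marker with DMSO and was all but lost with AU-15330. Its level with DMSO was 207 CPM at the lowest, 216 at the median and 549 at the highest, and the highest value was replicate 1, more than any of the others, which did not exceed 262 CPM. With AU-15330 the 6 libraries held 13 counts in all and none had more than 5, at a median of 0.107 CPM. With cisplatin Aldh3a1 ranged over 94.7, 113 and 222 CPM, and with the combination over 0.132, 0.407 and 0.519 CPM, from 46 counts. All libraries with AU-15330 lay far below all libraries without it.

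Summed over libraries, Aldh3a1 was 2648-fold lower with AU-15330 than with DMSO (95% exact interval of the count ratio 1548 to 4973) and 405-fold lower with the combination than with cisplatin (304 to 554). The fitted log2 fold changes were −11.35 ± 0.46 (edgeR adjusted p = 1.473e-17), which was the third in absolute size among all tested genes, and −8.66 ± 0.39 (edgeR adjusted p = 2.675e-16). In the combination the 46 counts exceeded the 13 with AU-15330, but the groups overlapped and the difference of 1.75 ± 0.93 was not called (edgeR adjusted p = 0.135). It was called in 2 of 14 alternative settings, with DESeq2 (1.81; adjusted p = 0.00609) and within replicates 4 to 6 (2.69; edgeR adjusted p = 0.0347). The interaction, 2.69 ± 0.95 (edgeR adjusted p = 0.0303), rests on these few counts and was called in 9 of 14 alternative settings.

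Cisplatin lowered Aldh3a1 by 0.94 on the log2 scale (SE 0.24; edgeR adjusted p = 0.0018), but not in all replicates. Replicates 2 and 3 with cisplatin stood at 221 CPM each, at the level of replicates 2 and 3 with DMSO (209 and 222 CPM), whereas the other 4 cisplatin libraries were between 94.7 and 122 CPM. Without replicate 1 the log2 fold change was −0.56 ± 0.19 (edgeR adjusted p = 0.0195), and within replicates 1 to 3 it was −0.84 ± 0.35 and no longer called (edgeR adjusted p = 0.076). Within replicates 4 to 6 it was −1.11 ± 0.13 (edgeR adjusted p = 5.012e-06), and without replicates 2 and 3 together, an alternative chosen after seeing these data, it was −1.55 ± 0.26.

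Aldh1a3, another retinaldehyde dehydrogenase, stayed just below the filter, which asked for 0.457 CPM in 6 libraries. Its counts were 2 to 8 per library with DMSO, 1 to 5 with AU-15330, 10 to 32 with cisplatin and 0 to 5 with the combination. The cisplatin libraries therefore lay above all others. Its mean level was 0.834 ± 0.347 CPM (SD, n = 6) with cisplatin against 0.265 ± 0.112 with DMSO (exact two-sided permutation p = 0.00216, the smallest that 6 against 6 libraries allow; 0.0216 after Benjamini-Hochberg adjustment over 20 tests). With the combination it was 0.0682 ± 0.0847 CPM, 12.1-fold lower than with cisplatin by summed counts (9 against 116; 95% exact interval 6.15 to 27.1; exact permutation p = 0.00216, adjusted 0.0216). The difference between AU-15330 and DMSO was not significant (exact permutation p = 0.0628, adjusted 0.192).

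Aldh1a2, the retinaldehyde dehydrogenase of the early embryo, had 0 counts in all 12 libraries with DMSO or AU-15330 alone, 3 in all with cisplatin and 6 in all with the combination, in 2 libraries of each. None of its differences was significant (exact permutation, adjusted p from 0.65 to 1). At this depth no difference in Aldh1a2 between treatments was detectable.

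**Figure D4:**
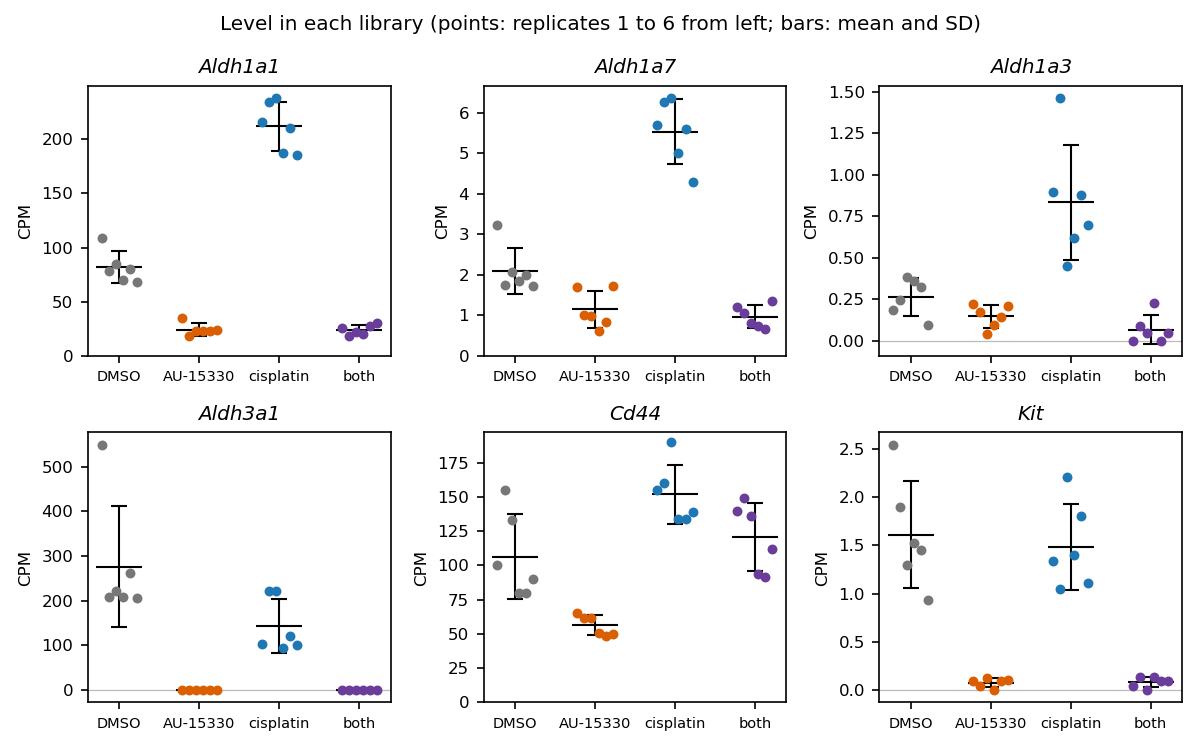
CPM in each library of the 6 markers with the highest levels, points in the order of replicates 1 to 6 within a treatment and bars for mean and SD. Aldh1a1, Aldh1a7 and Aldh1a3 are highest in the cisplatin libraries, Aldh3a1 and Kit are near 0 in all 12 libraries with AU-15330, and Cd44 is higher in replicates 1 to 3 than in 4 to 6 of every treatment.

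Cd44 was the well-expressed surface marker, and its response to AU-15330 was the smallest in fold among the well-expressed markers. It ranged over 79.7, 95.1 and 155 CPM (lowest, median and highest) with DMSO, 134, 147 and 190 with cisplatin, 48.3, 56.2 and 65.3 with AU-15330 and 91.6, 124 and 149 with the combination. The AU-15330 libraries lay below all other libraries, and the other 3 groups overlapped. Cisplatin raised Cd44 by a log2 fold change of 0.51 ± 0.15 (edgeR adjusted p = 0.00635) and AU-15330 changed it by −0.92 ± 0.15 (edgeR adjusted p = 7.671e-06).

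With both compounds Cd44 was 2.14-fold higher than with AU-15330 alone, a log2 difference of 1.10 ± 0.15 (edgeR adjusted p = 2.936e-06), and it was the single marker called in that comparison. The difference from cisplatin was −0.33 ± 0.15, with a 95% interval of −0.65 to −0.02, and was not called (edgeR adjusted p = 0.0542), although it was called in 9 of 15 alternative settings with the same direction. The interaction of 0.58 ± 0.22 (edgeR adjusted p = 0.0377) was called in 5 of 14 alternative settings.

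Replicates 1 to 3 of Cd44 exceeded replicates 4 to 6 in every treatment: 100 to 155 against 79.7 to 90.2 CPM with DMSO, 155 to 190 against 134 to 139 with cisplatin, 61.5 to 65.3 against 48.3 to 50.9 with AU-15330 and 136 to 149 against 91.6 to 112 with the combination. Nothing in the labels says what these numbers share. Within replicates 1 to 3 the effect of cisplatin was 0.37 ± 0.14 (edgeR adjusted p = 0.0553) and within replicates 4 to 6 it was 0.69 ± 0.08 (edgeR adjusted p = 3.154e-06). The effect of AU-15330 was −1.05 ± 0.14 and −0.75 ± 0.08 in these sets, called in both (edgeR adjusted p = 2.496e-05 and 5.73e-07). The combination exceeded AU-15330 by 1.14 ± 0.14 and 0.96 ± 0.08 (edgeR adjusted p = 0.000151 and 2.366e-07), while its difference from cisplatin was called in replicates 4 to 6 (−0.48, edgeR adjusted p = 4.997e-05) and not in replicates 1 to 3 (−0.27, edgeR adjusted p = 0.115). The interaction was 0.77 in replicates 1 to 3 (edgeR adjusted p = 0.0213) and 0.27 in replicates 4 to 6 (edgeR adjusted p = 0.0638).

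Kit was weakly expressed and nearly lost with AU-15330. Its counts ran from 20 to 41 per library with DMSO and from 23 to 49 with cisplatin, and no library with AU-15330, alone or combined, had more than 3. As levels these were 0.93, 1.49 and 2.54 CPM (lowest, median and highest) with DMSO, 1.05, 1.37 and 2.21 with cisplatin, 0, 0.0936 and 0.123 with AU-15330 and 0, 0.0944 and 0.136 with the combination. The groups with AU-15330 lay below those without it, with no overlap.

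The log2 fold change of Kit was −4.28 ± 0.39 for AU-15330 against DMSO (edgeR adjusted p = 2.545e-10) and −4.06 ± 0.38 for the combination against cisplatin (edgeR adjusted p = 5.935e-10). By summed counts Kit was 20.4-fold (95% exact interval 10.8 to 43.2) and 17.7-fold (9.70 to 36.0) lower. Cisplatin against DMSO gave −0.10 ± 0.25, with a 95% interval of −0.63 to 0.43 (edgeR adjusted p = 0.768). The interaction was 0.22 ± 0.68 with an interval from −1.20 to 1.63 (edgeR adjusted p = 0.836), an interval too wide to show whether cisplatin altered the effect of AU-15330 on Kit.

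Prom1, Cd24a and Epcam, which with Cd44 and Kit make up the usual surface panel, were close to or at 0. Prom1 had 1 count in all with DMSO, 5 with cisplatin and 9 with the combination. Cd24a had 1, 12 and 5, and Epcam had 6, 6 and 1. With AU-15330 alone all 3 were at 0 counts in all 6 libraries. No difference passed the adjustment over 20 exact permutation tests: the smallest p-values, 0.0152 each, were those of Cd24a with cisplatin against DMSO and of Prom1 with the combination against AU-15330 (adjusted 0.076). At this depth these libraries give no surface phenotype of CD133, CD24 or EPCAM to compare between treatments.

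The genes whose levels followed each marker most closely were found among 9780 other tested genes by Pearson correlation of log2 CPM across the 24 libraries, points that share treatments and replicate numbers. Aldh1a1 was closest to Plxnb3 and Carhsp1 (r = 0.98 each). Aldh1a7 was closest to Krt8 (0.95) and Plxnb3 (0.94), and its correlation with Aldh1a1 was 0.948. Aldh3a1 was closest to Pdlim4 and F13a1 (0.995 each). Cd44 was closest to Vcl (0.931), which encodes the adhesion protein vinculin, and Eri1 (0.928). Kit was closest to Galnt2 (0.978) and Slc9a3r2 (0.973), and among the markers to Aldh3a1 (0.963). Cd44 was the least like the others, with r from 0.511 to 0.607. Differences between treatments and between replicates both enter these correlations, and neither was separated.

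In the lists of related genes described next, some genes were called in AU-15330 against DMSO although their mean level in 1 or both of these groups was under the 0.457 CPM of the filter, so that they had been tested through groups where they were higher. Among them, named after their values were seen, were Dhrs9 and Adh7 (retinoid handling), Rarres2 (retinoic acid targets), Has1 and Has2 (partners of the surface markers), Abcb1a, Lgr6 and Notch3 (stem cell genes), Cdh1 and Krt7 (epithelial) and Lrrn4 (mesothelial). The same held in other comparisons. Stra6, Crabp2, Rarres2, Esrp1 and Notch3, also named after their values were seen, were called higher with cisplatin from DMSO means under 0.457 CPM. Among the genes called lower with the combination than with cisplatin, Stra6, Rarres2, Esrp1 and Notch3 had combination means under that level. Counts and medians over the lists include such genes in every comparison and are a description only.

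Of the 16 other ALDH genes, 13 were tested. AU-15330 against DMSO called 6 higher and 5 lower, where 36.2% of all tested genes were higher and 37.2% lower, with a median log2 fold change of 0.28 against −0.00301 over all tested genes. Aldh1l2, a mitochondrial enzyme of folate metabolism, fell by 7.70 on the log2 scale (SE 0.34; edgeR adjusted p = 1.005e-16) and Aldh3b1 fell by 2.62 (SE 0.12; edgeR adjusted p = 1.237e-16). Aldh5a1, which oxidises succinic semialdehyde, rose by 1.22 (SE 0.11; edgeR adjusted p = 2.056e-10). Cisplatin against DMSO called 1 higher and 6 lower, beside 26.0% and 25.7% of all genes, among the latter Aldh1l2 (−3.53), Aldh18a1, an enzyme of proline synthesis (−0.85), and Aldh9a1 (−0.58). The combination against cisplatin called 8 higher, including Aldh18a1 (1.27), and 5 lower, including Aldh1l2 (−2.47) and Aldh3b1 (−1.75), beside 35.4% and 32.7% of all genes.

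Retinoid handling genes make, bind or remove retinol, retinaldehyde and retinoic acid, and 10 of 16 were tested. With AU-15330, 7 were lower and 1 higher than with DMSO, beside 37.2% lower and 36.2% higher over all tested genes, at a median log2 fold change of −1.52 against −0.00301. Those named here were Fabp5, a fatty acid and retinoic acid binding protein (−5.32 ± 0.18; edgeR adjusted p = 7.575e-19), Dhrs3, a retinaldehyde reductase (−4.19 ± 0.15; edgeR adjusted p = 8.082e-19), and Rdh10, the retinol dehydrogenase that makes retinaldehyde (−1.61 ± 0.11; edgeR adjusted p = 5.83e-13). The gene called higher with AU-15330, named after its value was seen, was Cyp26b1 (2.57 ± 0.17, edgeR adjusted p = 5.28e-13). Cisplatin against DMSO called 4 higher and 5 lower (26.0% and 25.7% of all genes), with Rdh10 up (0.67) and Dhrs3 (−0.90) and Rdh11 (−0.59) down. The combination against cisplatin again called 1 higher and 7 lower (35.4% and 32.7% of all genes), with Fabp5 at −3.87, Dhrs3 at −3.38 and Rdh10 at −1.29. Against AU-15330 alone the combination called 5 higher and 1 lower (22.2% and 19.5% of all genes), including Fabp5 (1.01) and Rdh10 (0.98).

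Among retinoic acid receptors and genes known to respond to retinoic acid, 11 of 14 were tested. AU-15330 called 6 lower and 2 higher than DMSO, beside 37.2% lower and 36.2% higher over all tested genes (medians −0.52 and −0.00301), with Tgm2, the tissue transglutaminase, at −3.87 ± 0.16 (edgeR adjusted p = 1.277e-17), Rara at −1.19 ± 0.07 (edgeR adjusted p = 1.003e-13) and Rarg at 1.28 ± 0.10 (edgeR adjusted p = 1.299e-11). Cisplatin called 3 higher, among them Rarb (0.73) and Tgm2 (0.67), and 5 lower, among them Rarg (−0.74), beside 26.0% and 25.7% of all genes. With the combination against cisplatin 7 were lower, including Tgm2 (−2.84) and Meis1 (−1.51), and Rarg (1.59) was the 1 called higher, beside 32.7% lower and 35.4% higher over all genes. Rara and Rarg thus moved in opposite directions with AU-15330.

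Of 15 partners of the surface markers, 12 were tested. AU-15330 called 5 higher and 5 lower, shares close to the 36.2% and 37.2% of all tested genes. Kitl, which encodes the ligand of KIT, rose by 0.86 (SE 0.09; edgeR adjusted p = 8.875e-09), while Ezr, the ezrin linker of CD44 to actin, fell by 1.26 (SE 0.11; edgeR adjusted p = 6.413e-11) and Spp1, osteopontin, a ligand of CD44, fell by 1.04 (SE 0.12; edgeR adjusted p = 1.182e-08). Cisplatin called 3 higher and 4 lower (26.0% and 25.7% of all genes), with Ezr at 0.61, Kitl at −0.61 and the splicing factor Esrp2 at −0.76. The combination exceeded AU-15330 in Spp1 (1.72) and Msn, moesin (0.63), and was lower in Kitl (−1.16). The combination against cisplatin called 5 higher and 4 lower (35.4% and 32.7% of all genes), with Ezr at −1.49, Esrp2 at 1.24 and Spp1 at 0.97. Spp1 was thus lower with AU-15330 than with DMSO and higher with the combination than with cisplatin, an interaction of 2.01 ± 0.17 (edgeR adjusted p = 7.205e-10).

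Other genes used as stem cell markers numbered 21, of which 14 were tested. AU-15330 against DMSO called 11 lower and 2 higher, beside 37.2% lower and 36.2% higher over all tested genes, at a median log2 fold change of −1.17 against −0.00301. Nes, nestin, fell by 2.11 (SE 0.12; edgeR adjusted p = 1.395e-14) and Sox9 by 2.10 (SE 0.10; edgeR adjusted p = 9.627e-16), whereas Bmi1, a Polycomb protein, rose by 1.40 (SE 0.07; edgeR adjusted p = 1.668e-15). Cisplatin called 4 higher, with Nes at 1.48 and Sox9 at 0.58, and 1 lower, beside 26.0% and 25.7% of all genes. The combination against cisplatin called 11 lower and 2 higher (32.7% and 35.4% of all genes), with Sox9 at −2.53, Nes at −1.28 and Bmi1 at 1.11. Compared with AU-15330 alone, the combination was higher in Nes (2.31) and Myc (1.04) and lower in Klf4 (−0.73).

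**Figure D5:**
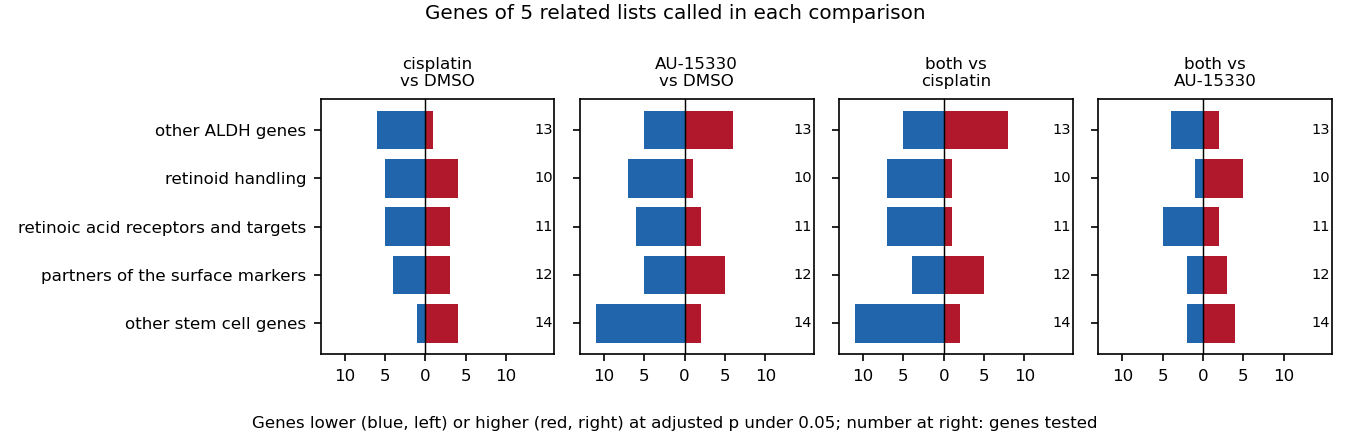
Number of genes of 5 related lists called lower (blue, left of 0) or higher (red, right of 0) in 4 comparisons, with the number tested at the right of each bar. With AU-15330 against DMSO 11 of 14 other stem cell genes were lower and 2 higher, and 5 of 13 other ALDH genes were lower and 6 higher, where 37.2% of all tested genes were lower and 36.2% higher.

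The labelled identity of the cells, ovarian cancer, was checked against markers. Wt1, Msln and Gata4, markers of the ovarian surface and mesothelium, were expressed in every group, and the summed level of the 8 genes of that list was 1916 to 2441 CPM with DMSO, 2466 to 2799 with cisplatin, 1419 to 1737 with AU-15330 and 1529 to 1711 with the combination. With AU-15330 against DMSO 6 of these 8 genes were nevertheless called lower and 1 higher, beside 37.2% and 36.2% of all tested genes, at a median log2 fold change of −1.31. With cisplatin against DMSO 5 were higher and 2 lower, beside 26.0% and 25.7% of all genes, with Upk3b at 2.13 and Upk1b at 1.76. The uroplakin genes Upk3b and Upk1b stood at −6.51 and −4.54 and Msln at −2.16 with AU-15330 against DMSO. The 10 epithelial markers summed to 2231 to 3794 CPM with DMSO and 2384 to 3109 with cisplatin but to 336 to 423 with AU-15330 and 374 to 469 with the combination. Krt19, a keratin of simple epithelia, went from a mean of 1780 CPM with DMSO to 7 CPM with AU-15330 (log2 fold change −7.99 ± 0.35 with AU-15330; edgeR adjusted p = 6.444e-17), and Krt18 was lower as well (−2.41 ± 0.10; edgeR adjusted p = 1.34e-17). Cldn3, Cldn4, Cldn6, Pax8 and Epcam stayed below the filter, with at most 16 counts in any library. Of the 6 epithelial genes tested, 5 were lower with AU-15330, Krt8 by only 0.47 on the log2 scale, and Muc1, a mucin named here after its value was seen, was higher (1.495 ± 0.178; edgeR adjusted p = 3.289e-08). With cisplatin against DMSO 5 of these 6 were higher and none lower, at a median log2 fold change of 1.26, with Krt8 at 0.70 and Krt18 at 0.22, while Krt19, which made up most of the summed level, was at −0.35 and not called (edgeR adjusted p = 0.257). Most tested genes of the epithelial and mesothelial lists were thus lower with AU-15330, as Aldh3a1, Kit and Aldh1a1 were, and higher with cisplatin, as Aldh1a1 and Aldh1a7 were, and their part in those results was not tested.

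Leukocyte and endothelial genes were mostly near 0. Of 8 leukocyte genes only Cd68, a lysosomal protein, was tested, and it was higher with AU-15330 (1.56 ± 0.29; edgeR adjusted p = 3.163e-05). The list summed to 6.51 to 19.1 CPM with DMSO and 17.2 to 53.5 with AU-15330, nearly all of it Cd68. Of 5 endothelial genes only Pecam1 was tested, and the list summed to 2.87 to 4.28 CPM with DMSO, 8.51 to 12.8 with cisplatin, 0.261 to 0.763 with AU-15330 and 0.483 to 1.20 with the combination. Ptprc, which defines leukocytes, had at most 5 counts in any library. AU-15330 acts on proteins, so the mRNA of Smarca4 does not check the labels.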

How the data were processed

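The deposited table held raw read counts per gene and lane of ID8 Trp53-/- RNA-seq libraries (48 columns, 2 lanes for each of 24 libraries, all mapped to labels). Per the labels and methods the authors prepared stranded poly(A) libraries, sequenced single-end reads, aligned them to mm10 with STAR 2.7.1a and used DESeq2 1.36.0; the counting tool, annotation and strand setting are not given in the sources used here. The cisplatin dose is that of the labels, which differs from the methods text.

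Lanes were summed, which leaves a depth of 17592588 to 25260009 counts per library. Genes were filtered with filterByExpr (minimum count 10; 12941 of 25229 kept) and compared in R 4.3.3 by the quasi-likelihood F test of edgeR 4.0.16 (one fit of the 4 groups after TMM normalisation, 20 residual degrees of freedom, Benjamini-Hochberg adjustment over all tested genes). SE is the absolute log2 fold change over the square root of F. Markers under the filter and the Aldh1a7 share were compared by exact permutation over all 924 splits. The script was tested on simulated data. Same-numbered replicates had every pair's correlation over 0.1 between AU-15330 and the combination, 0.101 to 0.483 over 6 pairs. That cut barely separates them from AU-15330 and cisplatin (0.0692 to 0.351). Replicate 1 deviated together between any 2 groups (0.217 to 0.483), so the numbers may pair more groups than these. DESeq2 1.42.0, other scalings, no filter, fits of 2 groups, the replicate block and left-out replicates were alternatives. The markers and lists were chosen with earlier results of these data known. Named beyond the markers were, per list and comparison, at most 3 called genes with the largest change (mean log2 CPM of at least 3) and the 2 genes most correlated with each tested marker. Markers of cell types named in the last 2 paragraphs were listed in full or by their place under the filter.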

Additional observations from a re-analysis of the deposited data

Results flagged for a closer look

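In 20 sets of 6 libraries (5 tested markers in 4 treatments), 1 library stood apart from the other 5 in 3 sets by Dixon's ratio of the gap to the range above its 95% critical value, where chance flags about 1 set in 20. They were Aldh3a1 in DMSO replicate 1 (ratio 0.839; 549 CPM against at most 262), Aldh1a7 in DMSO replicate 1 (0.763; 3.22 CPM against at most 2.08) and Aldh1a1 in AU-15330 replicate 1 (0.694; 35.4 CPM against at most 23.6). DMSO replicate 1 also had the highest Aldh1a1 (109 CPM) and Kit (2.54 CPM) of its group.

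The effect of AU-15330 differed with and without cisplatin for 4 markers in edgeR's interaction test. The difference was −1.38 for Aldh1a1 (adjusted p = 5.473e-06) and −1.64 for Aldh1a7 (adjusted p = 0.000307), both called in all 14 alternatives. It was 2.69 for Aldh3a1 (adjusted p = 0.0303), where the groups with AU-15330 held 13 and 46 counts, and 0.58 for Cd44 (adjusted p = 0.0377), and these 2 were called in 9 and 5 of 14 alternatives.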

How the results depend on the processing

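Over 15 alternative settings, 327 of 368 recomputed values for the tested markers kept their direction and side of the threshold, 16 were weaker, 11 stronger and 14 changed sign. None of the sign changes concerned a called value. For the combination against AU-15330, Aldh1a1 was 0.00513 with total counts, 0.00707 with the replicate block, 0.16 in replicates 4 to 6 and −0.104 to 0.0800 when each replicate was left out; Kit was −0.52 in replicates 1 to 3 and −0.31 to 0.55 over the left-out replicates. Kit with cisplatin against DMSO was 0.14 in replicates 4 to 6 and −0.274 to 0.0762 over the left-out replicates, and its interaction was −0.21 in replicates 1 to 3 and −0.21 to 0.82 over the left-out replicates. Markers called in the combination against AU-15330 were 2 in place of 1 with all genes that had a count (Prom1 added), with DESeq2 and in replicates 4 to 6 (Aldh3a1 added). Those with an interaction were 2 to 4 when each replicate was left out, 2 without replicate 1 or replicate 6. Aldh3a1 and Cd44 lost that call without replicate 1, 3 or 6, Cd44 also without replicate 2 and Aldh3a1 without replicate 5, and without replicate 3 Aldh1a3 passed the filter and was called (−3.08; edgeR adjusted p = 0.00606). Cisplatin against DMSO called 2 in replicates 1 to 3, and 2 when a log2 fold change of 1 was also asked for, where AU-15330 against DMSO called 3. The correlation of deviations from group means exceeded 0.1 in 23 of 36 same-number pairs (−0.133 to 0.483), in all 6 between AU-15330 and the combination but not in all 6 between any other 2 groups, and 18 of 36 correlated best with their own number, a hint of pairing from the data that the labels do not give. The replicate block called 4, 5, 5, 1 and 4 markers in the comparisons in the order of the report, the added call being Cd44 in the combination against cisplatin (−0.35; edgeR adjusted p = 0.000638), and it changed no other call of a marker. Either lane alone gave all 40 levels within 1 SD. Depth limits Aldh3a1, Kit, Aldh1a3 and Aldh1a7 with AU-15330, and Prom1, Cd24a, Epcam and Aldh1a2 throughout. Under no filter, Epcam with AU-15330 passed the threshold (−3.31, edgeR adjusted p = 0.00993). So did Prom1 in the combination against AU-15330 (3.67, edgeR adjusted p = 0.0127) and Cd24a with cisplatin (2.67, edgeR adjusted p = 0.0474). These 3 rest on at most 12 counts a group.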
